A study of Mus musculus with 30 samples.

Results

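Tumours of antibiotic-treated mice taken at 6 h after oxaliplatin were compared with tumours of antibiotic-treated mice taken at 0 h, across every gene that 1 array row named. The comparison used 10 of the 30 samples of the series, chosen by their labels: 5 at 6 h (WT_EL4_ABX_6h) and 5 at 0 h (WT_EL4_ABX_0h). It covered 19938 genes, each represented by the row with the highest mean over all arrays. Every sample title begins with WT, read here as wild-type mice. All mice carried a subcutaneous flank tumour grown from EL4, an established line of mouse T cell lymphoma, and received oxaliplatin at 10 mg per kg into the peritoneum 7 days after the cells. Both groups had been given an antibiotic cocktail for 3 weeks before the tumour cells. The 0 h group is labelled as oxaliplatin-treated too, and there were no tumours at 6 h without the drug, so an effect of the drug and any other change over those 6 h cannot be told apart. Water mice, which had no antibiotics, gave 5 tumours at 0 h and 5 at 6 h that served as a reference for the same interval. Whether every sample is a different mouse is not stated in the labels, and the p-values therefore reflect how much these samples varied, and that variation may be partly technical.

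Oxaliplatin binds DNA and forms crosslinks between neighbouring bases. Damaged DNA stabilises p53, a transcription factor that induces its own inhibitors, genes that stop the cell cycle, genes of cell death and genes of DNA repair. Genes repressed after p53 activation include many that act in mitosis. In bulk tumour RNA these responses are mixed with the RNA of host cells.

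Values are log2 expression on a gene array, and an array is named by its number within its group (array 1 to array 5), which carries no order. The T cell receptor genes Cd3e (11.12 to 11.31 over the 10 arrays) and Cd3d (10.30 to 10.52) were above the upper quartile of all rows on every one of the 10 arrays. The spread between arrays was widest in the group of interest: the SD of a gene had a median of 0.135 in antibiotic mice at 6 h, against 0.0799 to 0.111 in the other 5 groups. Arrays 3 and 5 of that group had the lowest estimated weights of the series (0.24 and 0.334), and their mean correlation with the rest of their group was 0.990 each, against 0.994 for arrays 1, 2 and 4. Array 3 had the narrowest interquartile range of rows, 2.98 against 3.26 to 3.35 on the other 4 arrays.

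No gene passed an adjusted p of 0.05 in limma between 0 and 6 h in antibiotic mice (0% of genes tested, smallest adjusted p = 0.14), whereas 222 genes passed over the same interval in water mice (1.11%), 139 higher (0.697%) and 83 lower (0.416%). At an unadjusted p under 0.05, 912 genes were higher (4.57%) and 1099 lower (5.51%) in antibiotic mice. These shares of all genes are the reference for the list counts below. With 1 array left out they ran from 3.41% to 6.74% higher and from 3.57% to 8.69% lower. They were 8.56% and 9.8% without arrays 1 and 5 at 6 h, and 4.62% and 2.96% without arrays 3 and 5. The 5 arrays at 6 h lay wholly above the 5 at 0 h for 87 genes (0.436%) and wholly below for 108 (0.542%). Over all genes the median log2 change was 0.00853 and the median SE 0.0716. When the spread was estimated from these 10 arrays alone, 1157 genes in place of 2011 had an unadjusted p under 0.05 and none passed after adjustment (smallest adjusted p = 0.54). In data simulated at this size the same test recovered 95% of genes changed by 0.5 and 98% of those changed by 1 on the log2 scale. The simulation gave a gene the same spread in every group. It therefore does not show what share would be found at the wider spread of antibiotic mice at 6 h.

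Of 45 measured genes of the p53 response, 0 passed in antibiotic mice and 20 were called higher in water mice at 6 h. The members were chosen with earlier results of these data known, which can raise the water counts and sizes. In antibiotic mice 38 of the 45 had a positive change with a median of 0.0908, beside 0.322 in water mice and 0.00853 over all genes in antibiotic mice. Cdkn1a, Gdf15, Bax, Fdxr and Gls2 were not on a row with 1 symbol and were not analysed here. Counts at an unadjusted p under 0.05 were 7 higher and 0 lower of the 45, where 4.57% of all genes were higher. When the spread came from the compared antibiotic arrays alone, 5 of the 45 were higher and 0 lower (all genes: 3.03% higher). In a bulk tumour fewer cells that respond and less RNA from each cell cannot be told apart.

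The sequence that p53 binds is built from 10-base half-sites. In RefSeq promoter sequences (GRCm38.p6, 250 bases before to 50 after each start), 33 of the 45 genes had an entry, and 11 of their 43 promoters held the p53 half-site (25.6%), against 8.36% of all 32851 promoters. A gene could enter with more than 1 promoter. The genes were listed for their place in the p53 response, so a higher share could follow from that choice. The half-site was searched by its usual consensus of 10 bases, which reads the same on both strands, and 10 genes held it. Its position was read with 1 chromosome left out, and 9 genes outside that chromosome held it before the start. None of the 43 promoters held a pair of half-sites within a spacer of 13 bases, against 0.0731% of all promoters. At so low a share, 43 promoters are too few to show a difference. A match is a description of the letters in this window and does not show binding. Stretches around the half-site, written in capitals, are printed for the 5 of these 9 genes that were called higher in water mice. Sesn1 is also printed, as 1 of the 4 that were not called there, and the other 3 are Ckap2, Ddit4l and Ppm1d. Outside the chromosome left out, the half-site before the start was thus held by 5 called and 4 uncalled genes. The printed ones were chosen with these calls known.
Mdm2 (chr10:117710905-117710974, minus strand): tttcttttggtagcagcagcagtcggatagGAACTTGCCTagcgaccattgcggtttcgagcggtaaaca
Ccng1 (chr11:40755432-40755501, minus strand): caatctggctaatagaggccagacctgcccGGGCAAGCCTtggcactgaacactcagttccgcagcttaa
Polk (chr13:96519379-96519437, minus strand): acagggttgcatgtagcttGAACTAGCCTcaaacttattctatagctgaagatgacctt
Aen (chr7:78895907-78895976, plus strand): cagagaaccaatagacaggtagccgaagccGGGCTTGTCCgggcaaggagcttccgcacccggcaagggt
Ei24 (chr9:36797335-36797374, minus strand): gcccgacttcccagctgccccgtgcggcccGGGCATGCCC
Sesn1 (chr10:41887236-41887305, plus strand): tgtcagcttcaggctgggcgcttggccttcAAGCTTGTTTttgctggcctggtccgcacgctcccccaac
In antibiotic mice the changes of these genes were 0.19 ± 0.076 (SE) for Mdm2, 0.0704 ± 0.085 for Ccng1, 0.13 ± 0.086 for Polk, 0.0551 ± 0.082 for Aen, 0.0667 ± 0.071 for Ei24 and 0.0953 ± 0.080 for Sesn1. In water mice the first 5 were 0.58, 0.48, 0.47, 0.35 and 0.39, and Sesn1 was 0.00555. Sesn1 is a stress-induced inhibitor of growth signalling. None of the 6 genes passed in antibiotic mice.

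Mdm2, the ubiquitin ligase that degrades p53 and is itself induced by it, was 10.45, 10.60, 10.61, 10.59 and 10.58 on the 5 arrays at 0 h and 10.58, 10.94, 10.66, 11.00 and 10.57 on the 5 at 6 h. Arrays 2 and 4 were high at 6 h, array 3 lay just above the 0 h arrays and arrays 1 and 5 among them, so the groups overlapped. The change of 0.19 (95% interval 0.030 to 0.34, limma adjusted p = 0.41) stood beside 0.58 ± 0.076 in water mice (adjusted p = 0.00034), where all 5 arrays at 6 h (11.16 to 11.25) lay above every array at 0 h (10.55 to 10.71). The difference between the 2 changes was -0.40 ± 0.11 (95% interval -0.62 to -0.17, adjusted p = 0.34 for the interaction). Each SE and interval rests on 1 spread per gene shared by all 6 groups. The SD of Mdm2 at 6 h was 0.2 in antibiotic and 0.042 in water mice. An exact permutation test of the antibiotic arrays gave p = 0.11.

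Trp53inp1, which p53 induces and which acts in autophagy and cell death, was 8.75, 9.26, 9.33, 9.12 and 9.18 at 0 h and 9.29, 10.14, 9.18, 10.20 and 9.14 at 6 h in antibiotic mice. Arrays 2 and 4 were above every 0 h array, as for Mdm2, and the other 3 lay among them. Its change was 0.46 ± 0.18 (limma adjusted p = 0.39) in antibiotic mice and 1.34 ± 0.18 in water mice. Ddias, an inhibitor of apoptosis after DNA damage, was 9.00 to 9.51 at 0 h and 9.52, 10.17, 9.10, 10.25 and 9.32 at 6 h, again highest on arrays 2 and 4. Cd80, a costimulatory ligand of T cells, was 8.43 to 8.73 at 0 h and 8.64, 9.20, 8.599, 9.20 and 8.30 at 6 h. Ddias changed by 1.08 ± 0.17 and Cd80 by 0.96 ± 0.17 in water mice, against 0.32 ± 0.17 and 0.24 ± 0.17 in antibiotic mice, which did not pass. In antibiotic mice the exact permutation test gave p = 0.17 for Trp53inp1, 0.26 for Ddias and 0.27 for Cd80.

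**Figure D1:**
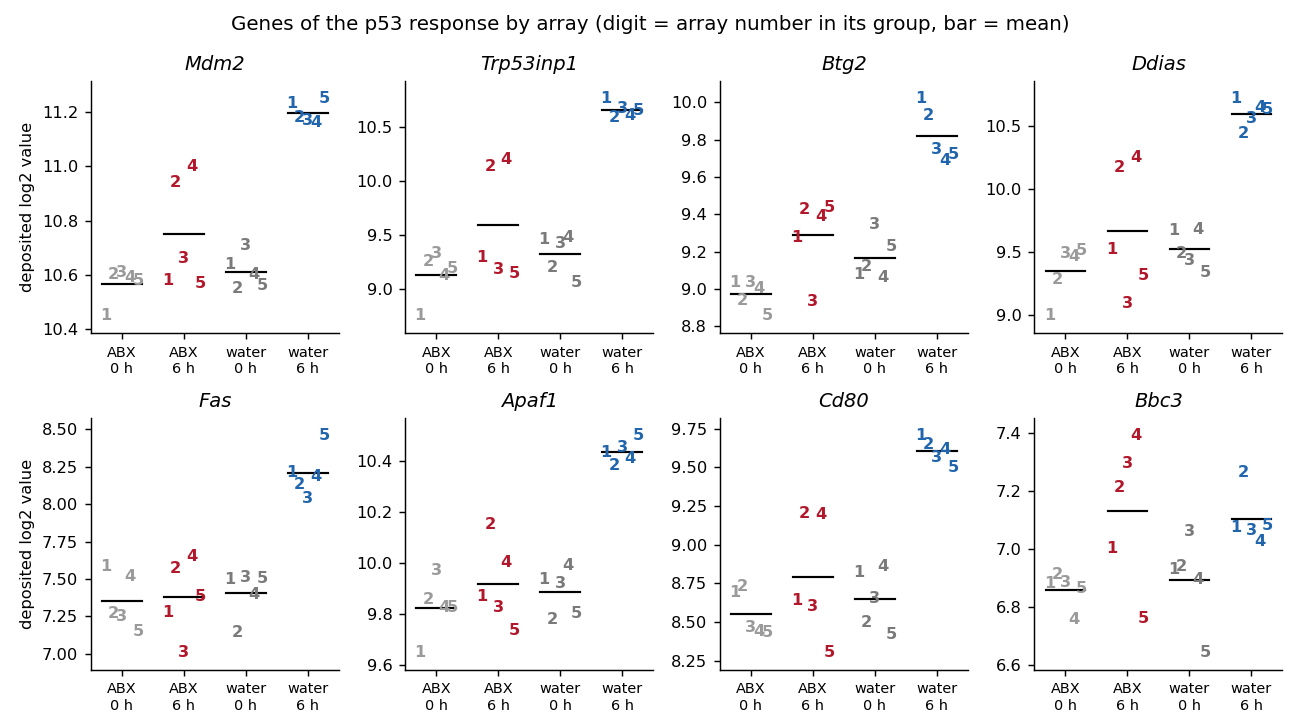
Deposited log2 values of 8 genes of the p53 response (y axis, one panel per gene) by group (x axis), where each digit is 1 array named by its number within its group, the bar is the group mean and ABX stands for antibiotic mice. In antibiotic mice at 6 h arrays 2 and 4 are high for Mdm2, Trp53inp1, Ddias and Cd80 while arrays 1, 3 and 5 lie near the 0 h arrays, and in water mice all 5 arrays at 6 h lie above all 5 at 0 h for every panel but Bbc3.

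Among the 15 measured genes of p53 feedback and cell cycle arrest, 5 were higher at an unadjusted p under 0.05 (all genes: 4.57%). That count was 3 when the spread came from the compared antibiotic arrays alone (3.03%). The median was 0.159 in antibiotic and 0.403 in water mice, where 8 were called. Btg2, an antiproliferative gene, was 8.86 to 9.04 at 0 h and 9.27, 9.42, 8.93, 9.39 and 9.44 at 6 h, so 4 of the 5 arrays lay above the 0 h group and array 3 did not. Its change was 0.32 ± 0.11 (limma adjusted p = 0.35) against 0.65 ± 0.11 in water mice. Plk2, a stress-induced kinase, was higher by 0.41 ± 0.16 and Phlda3, an Akt inhibitor, by 0.26 ± 0.098, with water changes of 0.34 and 0.27 that did not pass either. Both were highest on array 5 at 6 h (Plk2 7.70, Phlda3 8.20), unlike Mdm2.

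Of 14 measured death effectors, 2 were higher at an unadjusted p under 0.05 (all genes: 4.57%) with a median of 0.0814. In water mice 5 were called, with a median of 0.193. Bbc3, which encodes the pro-apoptotic protein PUMA, was 6.76 to 6.91 at 0 h and 7.00, 7.21, 7.30, 7.39 and 6.76 at 6 h, above the 0 h group on every array but array 5. Its change was 0.27 ± 0.088 (limma adjusted p = 0.31) beside 0.21 ± 0.088 in water mice, and neither passed. Trp53i11, a p53-inducible gene, was 11.02 to 11.35 at 0 h and 11.15, 11.54, 11.65, 11.42 and 11.77 at 6 h, a change of 0.39 ± 0.086 (adjusted p = 0.17) beside 0.0389 in water mice. It passed in limma when array 1 at 6 h was left out (0.47, adjusted p = 0.012), and Bbc3 passed when arrays 1 and 5 were (0.44, adjusted p = 0.016). Array 1 was the lowest 6 h array for Trp53i11, and arrays 1 and 5 were the lowest for Bbc3. Leaving out the lowest arrays raises the change, so these passes are no separate support for it.

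Fas, a death receptor, was 7.58, 7.27, 7.25, 7.52 and 7.15 at 0 h and 7.28, 7.57, 7.01, 7.65 and 7.38 at 6 h in antibiotic mice. The groups overlapped throughout and the change was 0.025 ± 0.15 (95% interval -0.28 to 0.33, limma adjusted p = 0.96), beside 0.80 ± 0.15 in water mice. Apaf1, the scaffold of the apoptosome, was 9.65 to 9.97 at 0 h and 9.87, 10.15, 9.82, 10.00 and 9.73 at 6 h, a change of 0.091 ± 0.076 beside 0.55 ± 0.076 in water mice. The interaction was -0.77 ± 0.21 for Fas and -0.46 ± 0.11 for Apaf1, each with an adjusted p of 0.34. Pidd1, which helps activate caspase-2, had 0.15 ± 0.11 against 0.62 in water mice, and Pmaip1, which encodes NOXA, 0.12 ± 0.070 against 0.077.

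Of the 16 measured genes of p53-linked repair and metabolism, 0 had an unadjusted p under 0.05 in antibiotic mice, with a median of 0.0424, and 7 were called in water mice with a median of 0.25. Polk, a translesion DNA polymerase, was 9.15 to 9.48 at 0 h and 9.36, 9.65, 9.18, 9.64 and 9.48 at 6 h. Sesn2, a stress-induced inhibitor of mTORC1, was 9.54 to 9.98 at 0 h and 9.69, 10.14, 9.96, 10.34 and 8.96 at 6 h. Array 5 was the lowest and array 4 the highest of the 10 for Sesn2, whose change was 0.035 ± 0.16 beside 0.62 ± 0.16 in water mice. Dglucy, a mitochondrial D-glutamate cyclase, followed arrays 2 and 4 (10.01 and 10.08, against 9.05 to 9.56 at 0 h).

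The same 2 arrays stood out over all 45 genes. The number of the 45 above the highest antibiotic 0 h array was 7 on array 1, 30 on array 2, 8 on array 3, 29 on array 4 and 12 on array 5 at 6 h. The median difference from the 0 h mean was 0.0262, 0.239, -0.012, 0.248 and -0.0662 on those arrays, against 0.216 to 0.428 on the 5 water arrays at 6 h relative to water mice at 0 h. Arrays 2 and 4 lay within that range and arrays 1, 3 and 5 below it. Without arrays 3 and 5, an alternative chosen after the data were seen, the median change of the 45 genes was 0.183, 22 had an unadjusted p under 0.05 (all genes: 4.62% higher) and 0 passed. Without arrays 1 and 5 it was 0.169, with 17 higher and 1 lower (all genes: 8.56% and 9.8%), and Bbc3 and Trp53i11 passed. With one 6 h array left out, 12 were higher without array 3 (all genes: 3.69%), 15 without array 5 (6.74%), 8 without array 1 (4.82%), and 6 without array 2 (median 0.0594) or array 4 (0.0578). Without array 1 of the 0 h group, the lowest of its group for Mdm2 and for the whole list (mean -0.294 against -0.226 to -0.174), the median fell to 0.0631 and 5 had an unadjusted p under 0.05. Markers of keratinocytes and hair were also high on arrays 2 and 4 (list means 0.629 and 1.1) and lowest of the 6 h arrays on arrays 3 and 5 (0.114 and -0.0627), and arrays 3 and 5 had the lowest weights. On array 1 the skin list was highest (1.63) and the p53 list mean was -0.173, next to the highest 0 h array (-0.174). The part of skin content and of array quality in the p53 values was not tested.

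The genes called in water mice were then followed in antibiotic mice, which share no arrays with that comparison, although one estimate of each gene's spread served both. Of the 222, 79.3% had a change of the same sign in antibiotic mice, against 46.6% of all genes. Of 139 called higher in water mice, 103 had a positive change in antibiotic mice, with a median of 0.0656, and of 83 called lower, 73 had a negative change, with a median of -0.0793. In water mice the medians were 0.321 and -0.238, sizes that are raised by the selection of called genes. At an unadjusted p under 0.05, 17 of the 139 were higher (all genes: 4.57%) and 30 of the 83 lower (all genes: 5.51%) in antibiotic mice. The arrays did not overlap for 2 and 6 of them (all genes: 0.436% higher and 0.542% lower). The 119 higher genes outside the p53 lists had a median of 0.0599 in antibiotic mice with 84 positive, and the 20 inside them 0.138 with 19 positive.

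**Figure D2:**
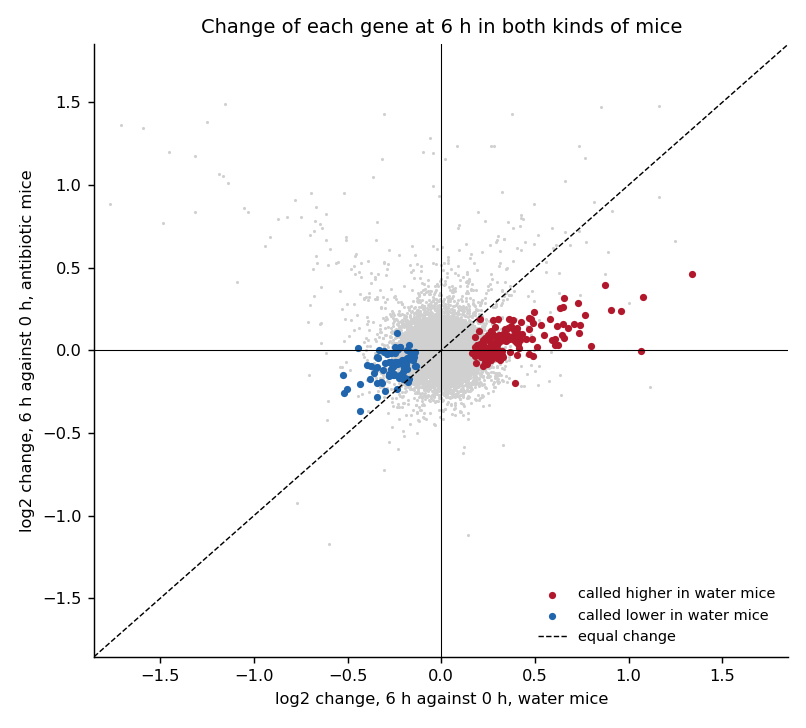
Log2 change of each of 19938 genes from 0 to 6 h in water mice (x axis) and in antibiotic mice (y axis); coloured points are the 139 genes called higher and the 83 called lower in water mice, and the dashed line marks equal change. The change was smaller in size in antibiotic mice for 221 of the 222 genes, which were selected in water mice, with medians in antibiotic mice of 0.0656 and -0.0793.

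For the 139 higher genes the median difference from the antibiotic 0 h mean was 0.0186, 0.193, -0.0248, 0.171 and -0.0616 on arrays 1 to 5, so arrays 2 and 4 were high and arrays 3 and 5 were below 0. For the 83 lower genes it was -0.0397, -0.104, -0.106, -0.0984 and -0.0863, negative on all 5 arrays. The arrays of the 0 h group ranged from -0.105 to 0.0493 for the higher and from -0.0419 to 0.0459 for the lower genes. At 6 h 61 to 72 of the 83 lower genes were below the 0 h mean on each array, whereas 48 to 133 of the 139 higher genes were above it.

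Rxylt1, a glycosyltransferase gene, and Btbd8 were among the genes with the smallest p in water mice (0.41 and 0.61) and were 0.076 ± 0.054 and 0.032 ± 0.082 in antibiotic mice. Snrpb, a core protein of spliceosomal particles called lower in water mice (-0.43), was 11.12, 11.24, 11.11, 10.88 and 11.17 at 0 h and 10.89 to 10.93 at 6 h in antibiotic mice. The 6 h arrays lay together and 4 of the 5 0 h arrays lay above them, a change of -0.20 ± 0.068 (limma adjusted p = 0.33). Prr11, a cell cycle gene, was -0.23 ± 0.083 beside -0.51 in water mice, and Ercc1, a nuclease subunit of nucleotide excision repair, -0.075 ± 0.050 beside -0.30.

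Of 24 measured genes of mitosis 20 had a negative change, 11 were lower and 1 higher at an unadjusted p under 0.05 (all genes: 5.51% lower), and 0 passed. The median was -0.0898 in antibiotic mice and -0.0872 in water mice, where 7 were called lower. Cenpe, a kinetochore motor, was 9.81, 10.05, 9.94, 10.08 and 10.12 at 0 h and 9.96, 9.84, 9.60, 9.67 and 9.65 at 6 h. Arrays 3, 4 and 5 at 6 h lay below every 0 h array, and the change was -0.26 ± 0.069 (limma adjusted p = 0.23) beside -0.085 in water mice. Hmmr, a spindle-associated protein, was -0.18 ± 0.058.

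Aurka and Plk1, kinases that drive entry into and passage through mitosis, had smaller changes here than in water mice. Aurka was 9.53 to 9.86 at 0 h and 9.51 to 9.66 at 6 h, a change of -0.13 ± 0.056 beside -0.36. Plk1 was 11.14 to 11.44 and 11.08 to 11.30, a change of -0.10 ± 0.049 beside -0.35, and neither passed. The count of lower mitosis genes depended on the arrays and on the spread used. It was 4 without arrays 3 and 5 at 6 h (all genes: 2.96% lower), 6 without array 3 (3.57%), 5 without array 4 (4.21%), 13 without array 1 (8.08%), 6 without array 5 at 0 h (4.40%) and 2 when the spread came from the 10 arrays alone (2.77%).

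DNA replication genes had a median of -0.024 with 1 higher and 3 lower of 26 at an unadjusted p under 0.05. Mcm4, a subunit of the replicative helicase, was -0.13 ± 0.043 and Mcm10, a replication initiation factor, -0.17 ± 0.055. Genes of repair and checkpoint responses to platinum adducts had 18 of 22 changes negative, 3 lower and a median of -0.0745 beside 0.068 in water mice. Brca2, a mediator of recombination, was 9.21 to 9.41 at 0 h and 9.32, 9.35, 9.02, 9.20 and 9.12 at 6 h, a change of -0.15 ± 0.059 beside 0.14 in water mice. Brca1, its partner in recombination, was -0.17 ± 0.067 beside 0.15. Both were lowest on array 3, and without arrays 3 and 5 the median of the 22 genes was -0.00273 with 0 lower and 1 higher. With 1 array left out the number lower went from 0 without array 3 at 6 h (median -0.0308) to 8 without array 1 at 0 h (median -0.11, all genes: 8.69% lower), with 5 without array 2 at 6 h and 1 without array 4 at 0 h. It was 6 without arrays 1 and 5 at 6 h, 5 with array medians subtracted (all genes: 8.13%) and 0 when the spread came from the 10 arrays alone. Replication-dependent histone genes, whose copies are so alike that rows may mix them, had a median of -0.0559 beside -0.183 in water mice.

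Genes of ribosome biogenesis were lower in 23 of 25 cases by sign, with a median of -0.0828 beside -0.0392 in water mice. At an unadjusted p under 0.05, 7 were lower (all genes: 5.51%), and 0 passed. With the spread from the 10 arrays alone 2 were lower (2.77%). Rrp12, a ribosome export and maturation factor, was 9.30 to 9.45 at 0 h and 9.37, 9.21, 9.25, 9.18 and 9.05 at 6 h. All arrays but array 1 lay below the 0 h group, with a change of -0.15 ± 0.050 (limma adjusted p = 0.33). Ncl, the nucleolar protein nucleolin, was -0.12 ± 0.046. The number of lower genes was 14 without array 1 at 6 h (all genes: 8.08% lower), 11 without array 2 at 6 h (7.01%) or array 1 at 0 h (8.69%), 3 without array 4 or 5 at 6 h or array 5 at 0 h, 4 without array 4 and 2 without array 2 at 0 h, and 0 without arrays 3 and 5 at 6 h (2.96%). Oxidative phosphorylation genes had the opposite sign in 22 of 26 cases, at a small median of 0.049 with 3 higher, among them Atp5d, a subunit of ATP synthase (0.083 ± 0.030), and Ndufs6 of respiratory complex I (0.11 ± 0.041). That count was 6 without array 5 at 6 h (all genes: 6.74% higher) and 8 without arrays 1 and 5 (8.56%). It was 2 without any 1 of the other 4 at 6 h (3.56% to 5.01%). With array medians subtracted it was 1 (2.83%), and 0 when the spread came from the 10 arrays alone (3.03%). The median was 0.0201 without array 4 at 6 h.

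Amino acid transporters were lower in 11 of 13 cases by sign and 5 at an unadjusted p under 0.05 (all genes: 5.51%). That count was 3 when the spread came from the 10 arrays alone (2.77%). The median was -0.0949 beside -0.104 in water mice. Slc1a4, a neutral amino acid transporter, was 9.92, 10.10, 9.84, 10.16 and 10.16 at 0 h and 9.96, 9.70, 9.70, 9.65 and 9.36 at 6 h. Arrays 2 to 5 lay below the 0 h group and array 1 within it, with a change of -0.36 ± 0.097 (limma adjusted p = 0.23) beside -0.43 ± 0.097 in water mice, which passed. Slc7a6, a cationic and neutral amino acid exchanger, was 10.37 to 10.45 at 0 h and 10.15 to 10.36 at 6 h with no overlap, a change of -0.20 ± 0.049. Slc6a9, a glycine transporter, was 10.39 to 10.88 at 0 h and 10.80, 10.71, 10.77, 10.72 and 10.00 at 6 h, so its -0.066 ± 0.13 rested on array 5. The list mean was also low on array 5 alone (-0.106 against 0.199 to 0.275 on the others), and the median was -0.0324 with 3 lower without that array.

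Integrated stress response genes had 3 higher and 1 lower of 18 at an unadjusted p under 0.05. Their median of 0.0212 changed sign when array medians were subtracted (-0.00291), without array 2, 3 or 4 at 6 h (-0.0222, -0.00647 and -0.0213) and without array 1 at 0 h (-0.0166). Chac1, which degrades glutathione, was 9.87, 10.25, 10.42, 9.79 and 9.56 at 0 h and 9.92, 9.80, 9.75, 9.45 and 8.87 at 6 h, a change of -0.42 ± 0.17 beside -0.61 in water mice. Trib3, a pseudokinase induced by ATF4, was -0.11 ± 0.15, and Cth, an enzyme of cysteine synthesis, 0.20 ± 0.057. Unfolded protein response genes had 3 lower of 19 (median -0.0593, Dnajb11 -0.16 ± 0.058 and Pdia3 -0.12 ± 0.048) and heat shock genes 3 lower of 11 (median -0.0604, Dnaja1 -0.14 ± 0.048 and Hsph1 -0.13 ± 0.061). Array 5 at 6 h had the highest list mean of unfolded protein response genes (0.153 against -0.116 to -0.0219), and without it 9 of the 19 were lower (47.4%, all genes: 6.33%) with a median of -0.0991. Without array 3 at 6 h 1 of the 19 was lower (median -0.0302, all genes: 3.57%), and the same count came without array 4 at 0 h (3.65%). The heat shock count was 1 to 4 with 1 array left out (all genes: 3.57% to 8.69%) and 0 without arrays 3 and 5 (2.96%). The heat shock median was -0.0164 without array 3.

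Immediate early genes, which respond within minutes to hours of a stimulus, were higher in 14 of 18 cases by sign. At an unadjusted p under 0.05, 6 were higher (all genes: 4.57%), and 4 when the spread came from the 10 arrays alone (3.03%). The median was 0.146 beside 0.114 in water mice. Fos was 7.19, 6.83, 7.04, 7.02 and 7.06 at 0 h and 7.52, 7.49, 7.37, 7.28 and 7.46 at 6 h. The groups did not overlap, and the change of 0.40 ± 0.15 (limma adjusted p = 0.37) stood beside 0.88 ± 0.15 in water mice, which passed. Egr3, a transcription factor of activated T cells, was 7.62 to 7.78 at 0 h and 7.96, 7.69, 8.07, 7.86 and 7.78 at 6 h, a change of 0.17 ± 0.057. Dusp1, a phosphatase that inactivates MAP kinases, was 9.54, 9.01, 9.15, 8.73 and 8.55 at 0 h and 9.33 to 9.63 at 6 h (0.47 ± 0.22). The list mean was highest on array 5 (0.152 against -0.116 to -0.00885), and without array 5 the median was 0.0899 with 2 higher. The count was 3 without array 4 or array 5 at 0 h.

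Inflammatory cytokine and NF-kB genes had a median of 0.0656 with 1 of 17 higher. Il1a, an alarmin cytokine, was 6.16, 6.02, 5.97, 5.69 and 5.88 at 0 h and 6.58, 6.93, 6.49, 6.44 and 6.54 at 6 h, all above the 0 h group. Its change of 0.65 ± 0.21 (limma adjusted p = 0.32) compared with 0.29 ± 0.21 in water mice. Il1b was 0.46 ± 0.24, Il6 0.29 ± 0.31 and Tnf 0.050 ± 0.064, beside 0.87, 1.00 and -0.020 in water mice, and none of these passed. Of 15 clock genes, 2 were higher and 2 lower at an unadjusted p under 0.05 (all genes: 4.57% and 5.51%), with a median of 0.056. Their lowest change was -0.289. The higher ones were Dbp, a clock output gene, and Per3, a clock gene (0.17 ± 0.054). Dbp was 7.18 to 7.34 at 0 h and 7.38 to 7.69 at 6 h with no overlap (0.24 ± 0.061). Without array 5 at 6 h, 4 clock genes were lower (all genes: 6.33%) and the median was 0.0259.

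Array 5 at 6 h stood apart for several groups of genes. Its list mean of hypoxia and glycolysis genes was 0.888 against -0.249 to -0.128 on the other 6 h arrays and -0.338 to 0.0661 at 0 h. The median of that list was 0.105 with 15 of 17 positive, and -0.0929 without array 5. The medians of type I interferon and skeletal muscle genes turned in the same way, from 0.0819 to -0.109 and from 0.0566 to -0.256, and the muscle median was also below 0 without array 5 at 0 h (-0.0227). Its mean was also high for type I interferon genes (0.568 against -0.351 to -0.262), macrophage genes (0.335 against -0.403 to -0.262) and skeletal muscle genes (1.5 against -0.627 to 0.0874). Myh4, a myosin of fast muscle fibres, was 11.05 on array 5 against 7.99 to 9.29 on the other 4, and Ckm, the creatine kinase of muscle, 11.60 against 8.97 to 9.93. Ddit4, a hypoxia- and stress-induced inhibitor of mTORC1, was 10.74 on array 5 against 9.72 to 10.16, and its change was 0.30 ± 0.13.

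Skin genes were prominent among the largest changes. Of 130 genes with a change above 0.5 on the log2 scale (0.652% of genes), 42 were keratins or keratin-associated genes, of which 97 were tested. Of the 130, 70 had an unadjusted p under 0.05, 5 showed no overlap and 0 passed. In the other direction 11 genes were below -0.5 (0.0552%). All 17 measured markers of keratinocytes and hair follicles were positive, 8 at an unadjusted p under 0.05 (all genes: 4.57% higher), with a median of 0.841 beside 0.0668 in water mice. Krt5, a basal keratin, was 7.30, 7.79, 6.95, 7.94 and 7.15 at 0 h and 10.12, 8.95, 7.48, 9.30 and 7.46 at 6 h. Arrays 1, 2 and 4 were high and arrays 3 and 5 lay within the 0 h range, with a change of 1.24 ± 0.60 (limma adjusted p = 0.49). Krt14, its partner keratin, was 6.26 to 6.73 at 0 h and 9.04, 8.28, 6.69, 8.23 and 6.37 at 6 h (1.23 ± 0.53).

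Skin genes did not all follow the same array. Krt10, a keratin of differentiated epidermis, was 10.27 on array 1 and 6.30 to 6.57 on the other 6 h arrays, against 6.33 to 6.47 at 0 h. Array 4 was the highest 6 h array for 66 of the 130 genes and array 1 for 48. The list mean at 6 h was 1.63, 0.629, 0.114, 1.10 and -0.0627 on arrays 1 to 5, against -0.681 to 0.185 at 0 h, and without array 1 the median change was 0.326 with 0 of 17 at an unadjusted p under 0.05. Without array 2 or array 4 at 6 h, or array 3 at 0 h, 2 of the 17 were higher (all genes: 5.01%, 3.56% and 4.09%). Without array 5 at 0 h 3 were (4.87%), and without array 1 at 0 h 5 were (4.77%). The skin list was also high on 1 water array at 6 h (list mean 1.26 against -0.755 to 0.259 on the other 4), where Krt5 was 10.17, Krt14 10.14 and Krt10 9.817. The interaction was 0.95 ± 0.84 for Krt5 and 0.50 ± 0.75 for Krt14 (limma adjusted p = 0.71 and 0.83), so no difference from water mice passed for them. The part of skin content in other changes was not tested.

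**Figure D3:**
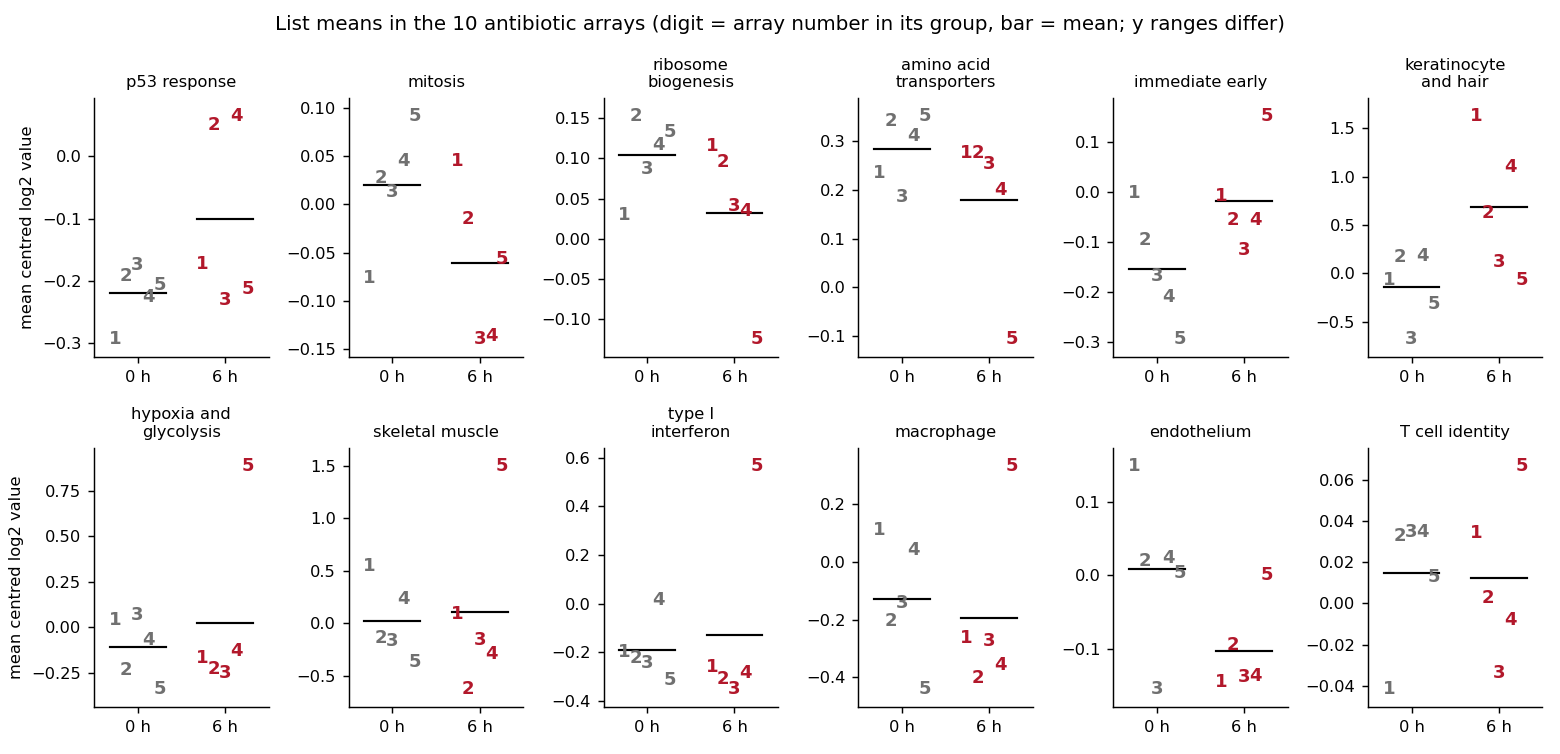
Mean of 12 gene lists (y axis, log2 value after centring each gene on its mean of all 30 arrays, with ranges that differ between panels) on the 5 antibiotic arrays at 0 h and the 5 at 6 h, where each digit is 1 array and the bar is the group mean. Arrays 2 and 4 are high for the p53 response, arrays 1, 2 and 4 for keratinocyte and hair genes, and array 5 for hypoxia, muscle, interferon and macrophage genes.

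Of 16 endothelial genes 13 were negative, with a median of -0.112 beside 0.0582 in water mice. At an unadjusted p under 0.05, 4 were lower (all genes: 5.51%), and 3 when the spread came from the 10 arrays alone (2.77%). Flt1, a VEGF receptor, was 9.53 to 9.77 at 0 h and 9.64, 9.59, 9.45, 9.36 and 9.11 at 6 h, a change of -0.25 ± 0.080 (limma adjusted p = 0.30) beside 0.063 in water mice. Pecam1, an endothelial adhesion molecule, was -0.21 ± 0.075 and Robo4, an endothelial guidance receptor, -0.21 ± 0.074. Fibroblast and matrix genes had 2 lower of 18 with a median of -0.0928 beside 0.113, with the collagen genes Col1a2 at -0.25 ± 0.12 and Col3a1 at -0.24 ± 0.11. None of these passed, and without array 5 at 6 h 7 of the 16 endothelial genes were lower at an unadjusted p under 0.05 (all genes: 6.33%). That count was 8 without array 3 at 0 h (all genes: 5.08%), where the fibroblast count was 5, and the endothelial median was -0.0653 without array 1 at 0 h. The fibroblast count was 0 without array 2 or 4 at 6 h or array 1, 4 or 5 at 0 h (all genes: 3.65% to 8.69%).

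Of 18 macrophage genes 0 had an unadjusted p under 0.05 (median -0.09), with Adgre1, a macrophage surface receptor, at -0.16 ± 0.16. Without array 5 at 6 h 3 were lower (16.7%, median -0.183), and without arrays 1 and 5 4 were (median -0.217, all genes: 9.8%), while the median was -0.0192 without array 2 at 6 h. Of 15 NK and cytotoxic genes 0 had an unadjusted p under 0.05 (median 0.00022). Itgam, an integrin of myeloid cells counted with the macrophage genes, was 8.67 to 9.39 at 0 h and 8.68, 8.55, 8.48, 8.49 and 9.51 at 6 h, high on array 5 alone. Neutrophil genes had 1 higher and 1 lower of 15, the lower being Il1r2, a decoy receptor of interleukin-1 (-0.47 ± 0.19). Their median of -0.112 was 0.0321 without array 1 at 0 h and -0.191 without array 5 at 6 h. T cell genes, which tumour and host share, had a median of -0.0336 with 1 lower of 13. Cd3e was 11.26 to 11.31 at 0 h and 11.12 to 11.27 at 6 h, a change of -0.057 ± 0.046.

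**Figure D4:**
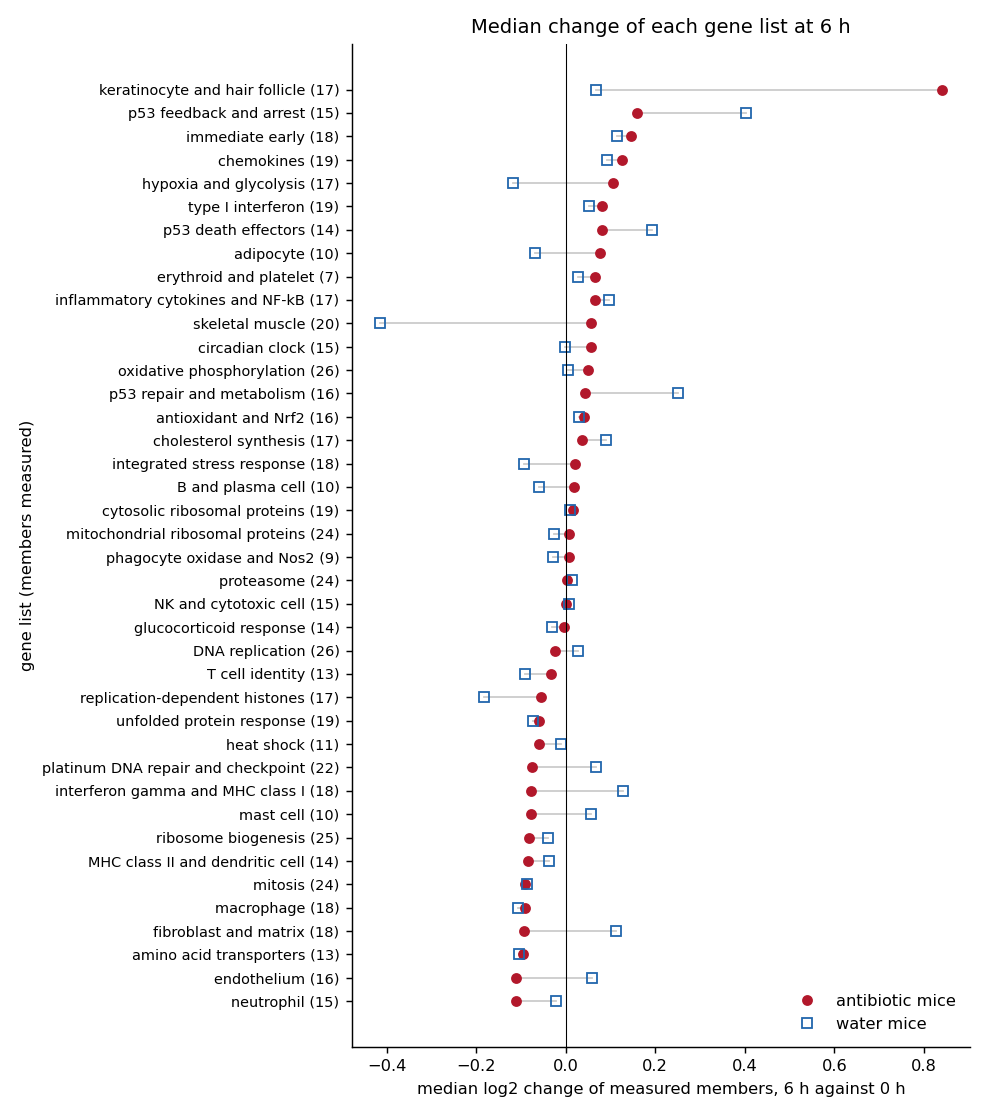
Median log2 change from 0 to 6 h (x axis) of the measured members of 40 gene lists (y axis, number of members in brackets) in antibiotic mice (filled circles) and water mice (open squares). Lists and members were chosen with earlier results of these data known. The p53 lists have smaller medians with antibiotics (0.159, 0.0814 and 0.0424 against 0.403, 0.193 and 0.25), mitosis has nearly the same (-0.0898 and -0.0872), and the keratinocyte list has the highest median in antibiotic mice (0.841 against 0.0668), which was 0.326 without array 1.

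The genes with the smallest p were mostly outside these lists. Scand1, a SCAN domain gene, was 9.85, 9.81, 10.10, 9.91 and 9.94 at 0 h and 10.01, 10.25, 10.36, 10.39 and 10.23 at 6 h, with arrays 2 to 5 above the 0 h group and a change of 0.33 ± 0.067 (limma adjusted p = 0.14). Apcdd1, an inhibitor of Wnt signalling, was 7.53 to 7.70 at 0 h and 7.69 to 8.27 at 6 h (0.39 ± 0.081), and Pias4, a SUMO ligase, 8.31 to 8.45 and 8.48 to 8.74 with no overlap (0.22 ± 0.046). Cyba, a subunit of the phagocyte oxidase, was higher by 0.25 ± 0.055 and Eif3f, a translation initiation factor, by 0.16 ± 0.038. Ech1, an enzyme of fatty acid oxidation, Erbb2, a receptor tyrosine kinase, and Sfxn3, a mitochondrial carrier, were higher by 0.24, 0.27 and 0.21, each with no overlap and an adjusted p of 0.19. In water mice the changes of these genes lay between -0.068 and 0.13, and none passed there.

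Wdr77, a partner of the arginine methyltransferase PRMT5, was 10.71, 10.64, 10.64, 10.66 and 10.74 at 0 h and 10.62, 10.49, 10.37, 10.36 and 10.36 at 6 h. The groups did not overlap, and the change of -0.23 ± 0.044 (limma adjusted p = 0.14) was as large as that in water mice, -0.24 ± 0.044, which passed (adjusted p = 0.0040). Elovl5, a fatty acid elongase, was 11.25 to 11.31 at 0 h and 10.93 to 11.18 at 6 h (-0.20 ± 0.039, water -0.14). Siglece, an inhibitory receptor of myeloid cells, was 7.42 to 7.68 at 0 h and 7.13, 7.09, 7.38, 7.03 and 7.33 at 6 h (-0.33 ± 0.064, water -0.13). Pprc1, a coactivator of mitochondrial biogenesis, was -0.17 ± 0.039 (adjusted p = 0.17) beside -0.19 in water mice, which passed. Wdr77 and Elovl5 passed with an intensity trend and robust prior, and Siglece with array weights or without array 3. Without array 1 at 6 h, Wdr77, Elovl5 and Pprc1 passed, as did Scand1, Pias4 and Cyba above and Zfp568, Tra2a, Ttf1 and Gpr65 below. For Wdr77, Scand1, Pias4, Zfp568, Tra2a, Ttf1 and Gpr65, array 1 was the 6 h array nearest the 0 h group. Leaving it out therefore enlarges their change.

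Other lower genes with small p were Tra2a, a splicing regulator (-0.21 ± 0.045), Ttf1, a termination factor of RNA polymerase I (-0.21 ± 0.049), Tmem104 (-0.23 ± 0.050), Itga9, an integrin subunit (-0.33 ± 0.076), Zfp568, a zinc finger repressor (-0.30 ± 0.060), Avpr1a, a vasopressin receptor (-0.43 ± 0.090), and Ppp1r15b, a phosphatase subunit that dephosphorylates eIF2α (-0.19 ± 0.043). Each had a limma adjusted p of 0.14 or 0.17. The arrays did not overlap for Tra2a, Tmem104, Itga9 and Ppp1r15b.

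Among genes whose arrays did not overlap, the largest positive change was that of Fbp1, a gluconeogenic phosphatase, which was 6.10, 6.68, 6.21, 6.10 and 6.11 at 0 h and 7.06, 7.19, 7.43, 7.69 and 6.81 at 6 h (0.99 ± 0.30, limma adjusted p = 0.27). In water mice it was -0.043 ± 0.30. Rnase2b, an eosinophil-type ribonuclease, Klk10, a kallikrein peptidase of skin, and Lgr5, a stem cell receptor, were higher by 0.88, 0.64 and 0.53. Gpr65, a proton-sensing receptor of lymphocytes, was 9.00 to 9.29 at 0 h and 8.995, 8.89, 8.30, 8.67 and 8.88 at 6 h (-0.38 ± 0.088), and Tmem252 and Adam4 were lower by 0.41 and 0.34. None passed with all 5 arrays.

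The interaction, which asks whether the 6 h change differed between antibiotic and water mice, gave 0 genes at an adjusted p under 0.05 (0%, smallest adjusted p = 0.07 in limma). At an unadjusted p under 0.05, 808 changes were more positive (4.05%) and 1156 more negative (5.8%) in antibiotic mice. Of the 45 p53 genes, chosen with earlier results of these data known, 20 were more negative and 1 more positive, with a median interaction of -0.201. Lgals12, a galectin of fat cells, had the smallest p: it was 6.70 to 6.77 at 0 h and 7.07, 6.86, 7.08, 7.06 and 7.02 at 6 h in antibiotic mice with no overlap, and 6.71 to 7.04 and 6.55 to 6.79 in water mice. Its changes of 0.28 ± 0.060 and -0.21 ± 0.060 differed by 0.49 ± 0.085 (95% interval 0.32 to 0.66, adjusted p = 0.07).

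Other genes had opposite signs in the 2 kinds of mice. Msra, a repair enzyme of oxidised methionine, was 9.42 to 9.52 at 0 h and 9.54 to 9.71 at 6 h in antibiotic mice and 9.56 to 9.60 and 9.40 to 9.51 in water mice, a difference of 0.24 ± 0.049 (limma adjusted p = 0.24). Ccp110, a regulator of centrioles and cilia, was -0.20 ± 0.089 in antibiotic and 0.40 ± 0.089 in water mice, and Rskr, a kinase gene, -0.20 ± 0.057 and 0.21 ± 0.057. Igfbp5, a binding protein of insulin-like growth factors, was 0.31 ± 0.12 and -0.41 ± 0.12, with array 5 at 6 h the highest of its group (7.65 against 7.02 to 7.20). Only Ccp110 of these 4 passed in water mice.

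At 18 h, compared with the same antibiotic arrays at 0 h, 1.22% of genes were called, and both comparisons share those 0 h arrays. Mdm2 was 0.19 at 6 h and 0.38 at 18 h (limma adjusted p = 0.0082), Trp53inp1 0.46 and 0.94, Btg2 0.32 and 0.60, Ddias 0.32 and 0.84, Cd80 0.24 and 0.83, and these 5 genes rose by 18 h. The median of the 45 p53 genes was 0.0908 at 6 h and 0.141 at 18 h. Fas was 0.025 and 0.55, which did not pass at either time, and Il1b was 0.46 and 1.10, which passed at 18 h. Chac1 was -0.42 at 6 h and -1.29 at 18 h, and Slc1a4 was -0.36 and -0.93, both of which fell by 18 h. Aurka (-0.13 and -0.013), Plk1 (-0.10 and -0.018) and Wdr77 (-0.23 and -0.15) did not pass at either time.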

How the data were processed

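Gene arrays were run on 30 tumour RNA samples. The deposited values are log2 expression per row, made by the authors with Partek 6.6 per the submitters' processing notes; how rows were summarised and normalized was not given in the sources used here. Of 28853 rows, 21775 had 1 gene symbol in the platform annotation, 1578 several and 5500 none listed; 21684 matched by Entrez ID, which updated 0 symbols. The row with the highest mean stood for each of 998 genes with several rows. Groups follow the sample titles. limma 3.58.1 (R 4.3.3) fitted 6 group means over 30 arrays (24 residual and 3.63 prior degrees of freedom, median residual SD 0.115), with Benjamini-Hochberg adjustment over 19938 genes and a threshold of 0.05. The test was tested on simulated data with 200 genes changed and equal spread in all groups, which gave 12 false calls and 0 of the wrong sign. Named were the 10 genes each way with the smallest p, the 5 each way with the largest change without overlap, the leading and defining members of 40 lists (661 of 721 names measured), a preset set, and the leading genes of the water comparison, of the interaction and without array 1 at 6 h. Unnamed predicted genes were passed over. Members and lists were chosen with earlier results of these data known. Alternatives changed the normalization, the arrays fitted or weighted, the filter, the row rule and the prior. The number of arrays limits the precision. Python 3.11.15, pandas 2.3.3 and scipy 1.17.1 were also used.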

Additional observations from a re-analysis of the deposited data

Results flagged for a closer look

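Within groups of 5 arrays, 35 of 390 tested sets of values had an array set apart from the other 4 relative to the range of the 5. Chance gives about 1 in 20 groups (19.5) if the sets are independent, but lists share genes with the single-gene sets. The gap could be small where the other values were tight, as for Rskr at 0 h (7.054 with the next value 7.035). Array 5 at 6 h was high for Itgam (9.512), Ccr7 (8.625), Casq1 (9.168), Pvalb (9.611) and Igfbp5 (7.654) and low for the glycine transporter Slc6a9 (10.0). Its list means were high for hypoxia and glycolysis (0.888), glucocorticoid response (0.256), circadian clock (0.261), type I interferon (0.568) and macrophage genes (0.335), and low for amino acid transporters (-0.106). Array 1 at 6 h was high for the skin genes Krt10 (10.27) and Trp63 (7.41) and for Pprc1 (9.375), and low for Tmem252 (6.88). Array 2 at 6 h was high for Il1a (6.933) and Fdft1 (9.899) and low for Lgals12 (6.856). Array 3 at 6 h was low for Mrps12 (7.676) and in its interquartile range of rows (2.9764), and array 4 was high for Psmb6 (11.14).

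In the 0 h group, array 1 was low for Mdm2 (10.45), Brca2 (9.211) and Cd4 (8.194) and high for Phlda3 (7.769). Its list means were low for p53 repair and metabolism (-0.319), platinum DNA repair (-0.129) and T cell identity (-0.0416), and high for adipocyte (0.117) and erythroid and platelet genes (0.125). Array 2 was high for Fbp1 (6.683) and low for Rpl36 (12.09), array 3 was high for Trp53i11 (11.35) and array 4 for Rskr (7.054). Between antibiotic and water mice, Msra stood out because its 6 h arrays lay wholly above 0 h with antibiotics and wholly below in water, a difference of 0.24 (limma adjusted p = 0.24).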

How the results depend on the processing

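The count of genes past the threshold at 6 h in antibiotic mice was 0, and became 1 with array weights, 2 with an intensity trend and robust prior, 69 without arrays 1 and 5 at 6 h, 1 without arrays 3 and 5 (chosen after seeing the data), and 0 to 17 with one array left out. The 17 came without array 1 at 6 h. The interaction count of 0 became 1 with array weights, 1 with dim genes left out, and 0 to 1 with one array left out. The share of water-called genes with the same sign, 79.3%, became 85.0% with array medians subtracted, 69.7% when only the groups compared were fitted, 84.7% without arrays 1 and 5, 89.5% without arrays 3 and 5, and 71.4% to 85.6% with one array left out. Subtracting array medians turned the split of 912 higher and 1099 lower genes at an unadjusted p under 0.05 into 565 and 1620. Of 2882 values of named genes under alternatives, 50 of 19 genes changed sign. Without arrays 3 and 5 these were Pmaip1 (-0.016), Pgk1 (-0.00409), Ncr1 (-0.0415), Casq1 (-0.103), Pvalb (-0.297), Slc6a9 (0.0783) and Ckm (-0.237). Without arrays 1 and 5 they were Casq1 (-0.238), Pvalb (-0.301), Retn (-0.00126), Il6 (-0.0382), Trib3 (0.0348), Slc6a9 (0.0657) and Ckm (-0.326). With array weights they were Pvalb (-0.0267), Slc6a9 (0.0428) and Ckm (-0.0166), and with quantile normalization Fas (-0.0125), Btbd8 (-0.00871) and Myh4 (0.0256). With one array left out the range was -0.105 to 0.559 for Casq1, -0.212 to 0.591 for Pvalb, -0.042 to 0.118 for Fas, -0.0951 to 0.248 for Sesn2, -0.238 to 0.00307 for Trib3, -0.134 to 0.0836 for Slc6a9, -0.0273 to 0.0965 for Btbd8, -0.163 to 0.000991 for Cd68, -0.327 to 0.139 for Acta1, -0.213 to 0.444 for Ckm, -0.495 to 0.271 for Myh4, -0.231 to 0.0359 for S100a8, -0.261 to 0.0321 for S100a9 and -0.118 to 0.0273 for Cd4. Medians of 19 of 41 gene lists changed sign under at least 1 alternative: 10 without arrays 3 and 5, 7 without arrays 1 and 5, 7 with array medians subtracted, and 1 to 6 with one array left out. The cause was not tested. No paired analysis was possible because the sample numbers run through the series and no number is shared between groups.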
